A study of Homo sapiens with 6 samples.

Results

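BCR, ABL1 and 8 genes for ABL2 and for adaptor and regulator proteins that work beside these kinases were followed by name in a table of 35410 genes, and all 10 were found (BCR, ABL1, ABL2, GRB2, GAB2, CRKL, CRK, SHC1, SOS1 and CBL). BCR is here the breakpoint cluster region gene, not the B cell receptor. The measurements came from MACE-Seq, which sequences the 3′ ends of polyadenylated transcripts. The lines were SEM::mock, transfected with an empty vector, and SEM::EGR3, with a transgene for the zinc finger transcription factor EGR3, each with 3 biological replicates. SEM, a human cell line of proB leukemia, carries the KMT2A::AFF1 fusion. Both lines, the control included, received 1 µg/mL doxycycline for 48 h, since the transgene is under an inducible promoter. Whether each line is 1 clone or a pool is not given in the sources used here. The table holds 5286115 to 6181388 counts per SEM::mock library and 7293092 to 15106018 per SEM::EGR3 library.

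BCR encodes a signaling protein with a kinase domain and domains that act on small GTPases, and ABL1 encodes a cytoplasmic tyrosine kinase. Their fusion, formed by the Philadelphia chromosome, is a constitutively active kinase in chronic myeloid leukemia and in a class of acute lymphoblastic leukemia. The fusion protein binds the adaptor GRB2, which brings the RAS activator SOS1 and the docking protein GAB2 to the kinase, while CRKL is one of its main substrates and CBL marks active kinases for degradation. The labels name no BCR::ABL1 fusion in SEM. A count at the 3′ end of ABL1 cannot tell the gene's own transcript from a fusion transcript that ends in ABL1, and such a fusion would add nothing to the 3′ end of BCR.

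EGR3 transcripts were abundant in the libraries labelled with the transgene, though the counts alone do not tell its transcript from that of the cell's own gene. EGR3 had 6 to 10 counts per SEM::mock library and 4952 to 9768 counts per SEM::EGR3 library. The lines also differed in their markers. The summed level of 11 B lineage markers was 2.65 to 5.88 CPM (normalised read counts scaled to a library size of 1000000) in SEM::mock against 497 to 524 CPM in SEM::EGR3. Of the 11, 8 had at most 3 counts in every SEM::mock library, among them PAX5, EBF1 and CD79A. BLNK and DNTT, 2 of these 8, had at most 3 counts in every SEM::EGR3 library as well. The 8 KMT2A fusion target markers summed to 48.2 to 55.0 CPM in SEM::mock against 886 to 948 CPM, with HOXA7 and HOXA9 at that floor in SEM::mock. Erythroid markers were abundant in both lines, with 4736 to 5021 CPM in SEM::mock and 6079 to 6326 CPM in SEM::EGR3. The SEM::mock libraries therefore lack defining markers of the labelled cell type. The part of these marker differences in the changes described here was not tested, and with 1 line per condition EGR3 and other differences between the lines cannot be told apart. In bulk RNA, fewer cells of a type and less RNA per cell cannot be told apart either.

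Transcripts of 7 of the 10 genes were lower in SEM::EGR3, those of BCR, ABL1, ABL2, GRB2, CRKL, CRK and SOS1, by 1.26- to 1.54-fold. CBL was slightly higher, and GAB2 and SHC1 were not called. Calls were made at an adjusted p under 0.05 in the quasi-likelihood test of edgeR, adjusted after Benjamini and Hochberg for 15465 tested genes, which included all 10. Among those tested genes 68.5% were called, with 36.5% higher and 32.0% lower in SEM::EGR3. The median log2 fold change was −0.52 over the 10 genes and 0.03 over all tested genes. No gene of the 10 changed by 1 or more on the log2 scale. The libraries of the lines did not overlap in 9 of the 10 genes, against 70.1% of all tested genes.

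**Figure D1:**
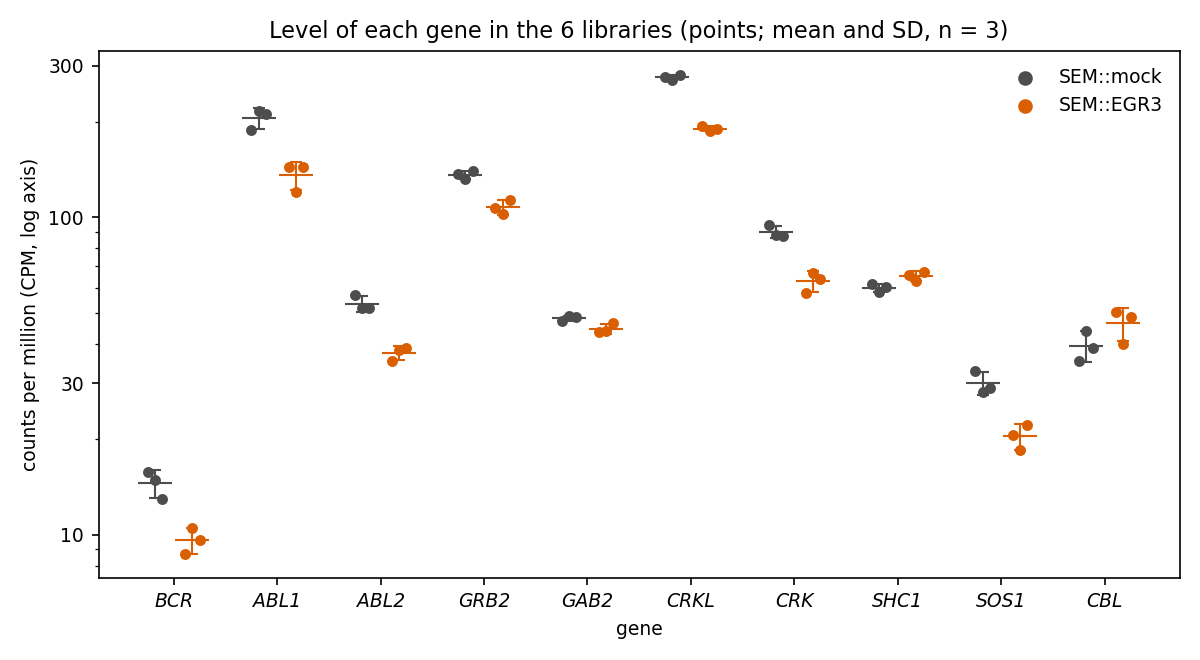
CPM of each of the 10 genes (log axis) in the 3 SEM::mock libraries (grey) and the 3 SEM::EGR3 libraries (orange), with the mean and SD of each line. The lines are apart for 9 genes, and the libraries of CBL overlap.

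The fusion partners come first. BCR (ENSG00000186716, chr22:23179704-23318037, GRCh38) had 15.7, 14.9 and 12.9 CPM in SEM::mock replicates 1 to 3 and 8.71, 10.5 and 9.62 CPM in SEM::EGR3 replicates 1 to 3. Every SEM::EGR3 library lay under the lowest SEM::mock library. The log2 fold change was −0.63 (SE 0.14, adjusted p = 2.66e-04). BCR had the fewest counts of the 10 genes, 66 to 135 counts per library, and its interval was the widest, from −0.91 to −0.34. The 6 BCR pseudogenes on the same chromosome have rows of their own, which together held 252 counts against 544 for BCR, so that reads may have been split among them. Most of the 252 came from BCRP2, which was lower too (log2 fold change −1.81, SE 0.23, adjusted p = 1.84e-07). With the 6 rows added, BCR had 27.7, 21.1 and 24.1 CPM in SEM::mock and 11.6, 12.9 and 12.6 CPM in SEM::EGR3, again without overlap.

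ABL1 (ENSG00000097007, chr9:130713946-130887675) had 188, 216 and 211 CPM in SEM::mock and 144, 120 and 144 CPM in SEM::EGR3. The fall was similar in size to that of BCR, with a log2 fold change of −0.59 (SE 0.07, adjusted p = 3.69e-08), but it rested on 891 to 2230 counts per library. No other annotated gene overlaps the last exon of ABL1. ABL2 (ENSG00000143322, chr1:179099327-179229684), the closely related second kinase of the family, had 56.7, 51.6 and 51.8 CPM in SEM::mock and 35.2, 38.3 and 38.8 CPM in SEM::EGR3. Its log2 fold change was −0.52 (SE 0.08, adjusted p = 1.65e-06), and the lines were again apart.

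The adaptors with an SH2 domain followed the same direction, apart from SHC1. CRKL (ENSG00000099942, chr22:20917426-20953749), which links ABL kinases to guanine nucleotide exchange factors, had 276, 271 and 281 CPM in SEM::mock and 194, 187 and 189 CPM in SEM::EGR3. It had the most counts of the 10 genes in both lines and varied least among replicates, and its log2 fold change was −0.54 (SE 0.05, adjusted p = 1.78e-09). CRK (ENSG00000167193, chr17:1420689-1463162), the paralog of CRKL, had 94.4, 87.9 and 87.5 CPM in SEM::mock and 57.7, 66.9 and 64.0 CPM in SEM::EGR3, a log2 fold change of −0.53 (SE 0.07, adjusted p = 2.56e-07). GRB2 (ENSG00000177885, chr17:75318076-75405709), the adaptor between tyrosine kinases and RAS, had 136, 132 and 139 CPM in SEM::mock and 107, 102 and 114 CPM in SEM::EGR3. Its decrease was the smallest of the 7, at −0.34 (SE 0.06, adjusted p = 1.99e-05). SHC1 (ENSG00000160691, chr1:154962298-154974395), an adaptor phosphorylated by tyrosine kinases to recruit GRB2, had 61.5, 58.0 and 60.2 CPM in SEM::mock and 65.9, 62.8 and 67.4 CPM in SEM::EGR3. Although the SHC1 libraries did not overlap, the difference of 0.13 (SE 0.07, 95% interval −0.01 to 0.27) missed the threshold (adjusted p = 0.0908). SHC1 was called higher without normalization factors (log2 fold change 0.21, adjusted p = 0.00958) and with at least 10 counts required in every library (0.18, adjusted p = 0.0199, both edgeR). The last exon of SHC1 overlaps the span of PYGO2 on the same strand. PYGO2 was lower in SEM::EGR3 (log2 fold change −0.32, SE 0.07, adjusted p = 1.27e-04). The 3′ end of PYGO2, at chr1:154957026, lies outside that exon. AL451085.2, on the opposite strand, overlaps the last exon of SHC1 too and was higher in SEM::EGR3 (log2 fold change 0.85, SE 0.29, adjusted p = 0.0112). It had 10 to 16 counts per SEM::mock library and 24 to 66 per SEM::EGR3 library. The part of reads shared with PYGO2 or AL451085.2 in the SHC1 counts was not tested.

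**Figure D2:**
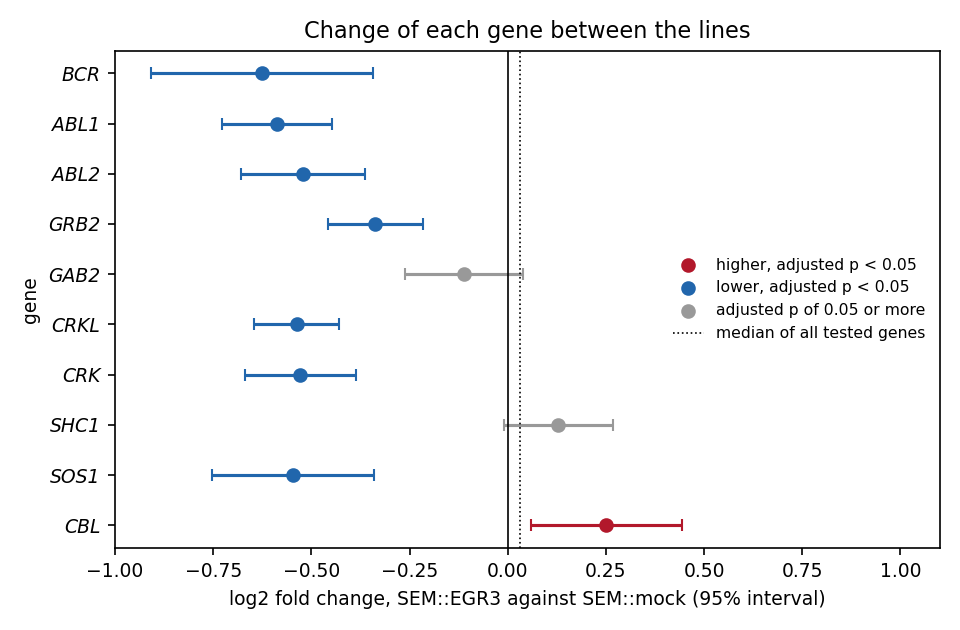
Log2 fold change of SEM::EGR3 against SEM::mock with its 95% interval for each of the 10 genes, coloured by call, beside the median of all tested genes (dotted line). Of the intervals, 7 lie wholly below 0, that of CBL lies above 0, and those of GAB2 and SHC1 include 0.

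Downstream of the adaptors, the RAS activator went with the kinases, while the docking protein and the ubiquitin ligase did not. SOS1 (ENSG00000115904, chr2:38981396-39124345), the exchange factor that loads RAS with GTP, had 32.9, 28.1 and 29.02 CPM in SEM::mock and 20.6, 18.5 and 22.2 CPM in SEM::EGR3, a log2 fold change of −0.55 (SE 0.10, adjusted p = 3.28e-05). GAB2 (ENSG00000033327, chr11:78215297-78418348), which recruits phosphatidylinositol 3-kinase and the phosphatase PTPN11, had 47.0, 48.7 and 48.4 CPM in SEM::mock and 43.4, 43.9 and 46.3 CPM in SEM::EGR3. Its libraries did not overlap, yet the log2 fold change of −0.11 (SE 0.07) was not called (adjusted p = 0.176), and the 95% interval from −0.26 to 0.04 leaves a small change in either direction possible. CBL (ENSG00000110395, chr11:119206276-119313926), the E3 ubiquitin ligase that attenuates tyrosine kinases, had 35.2, 43.9 and 38.8 CPM in SEM::mock and 50.4, 40.01 and 48.4 CPM in SEM::EGR3. SEM::EGR3 replicate 2 lay below SEM::mock replicate 2, so the lines overlapped, and the log2 fold change was 0.25 (SE 0.09, adjusted p = 0.0193).

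The call of CBL depended on single libraries: the adjusted p was 0.169 without SEM::mock replicate 1, 0.0697 without SEM::mock replicate 3, 0.133 without SEM::EGR3 replicate 1 and 0.0541 without SEM::EGR3 replicate 3 (edgeR). The last exon of CBL also overlaps MCAM on the opposite strand, which was higher in SEM::EGR3 (log2 fold change 0.95, SE 0.12, adjusted p = 2.67e-07) with 864 counts against 2176 for CBL, and the part of MCAM reads in the CBL counts was not tested. The 7 decreases kept their calls whichever library was left out. When the test asked for an absolute log2 fold change above 0.5, 0 of the 10 genes were called at an adjusted p under 0.05, and 1, ABL1, had an unadjusted p under 0.05 (0.0326, edgeR's glmTreat).

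Ratios between genes of 1 library do not depend on how libraries are scaled, and 3 of them were compared. The log2 ratio of ABL1 to ABL2 counts was 1.73, 2.07 and 2.03 in SEM::mock and 2.03, 1.65 and 1.89 in SEM::EGR3. The lines overlapped, and the difference of −0.08 had an exact permutation p of 0.6 (two-sided). The log2 ratio of CRKL to CRK differed by −0.02 between the lines (1.62 ± 0.07 against 1.596 ± 0.14, SD, n = 3, exact permutation p = 0.9), and that of BCR to ABL1 by 4.13e-04 (−3.81 ± 0.23 against −3.81 ± 0.28, SD, n = 3, exact permutation p = 1). All 3 adjusted values were 1, and with 3 libraries against 3 the smallest p possible is 0.1. Thus a shift in the balance between the paralogs, or between the fusion partners, was not detectable at this number of libraries.

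**Figure D3:**
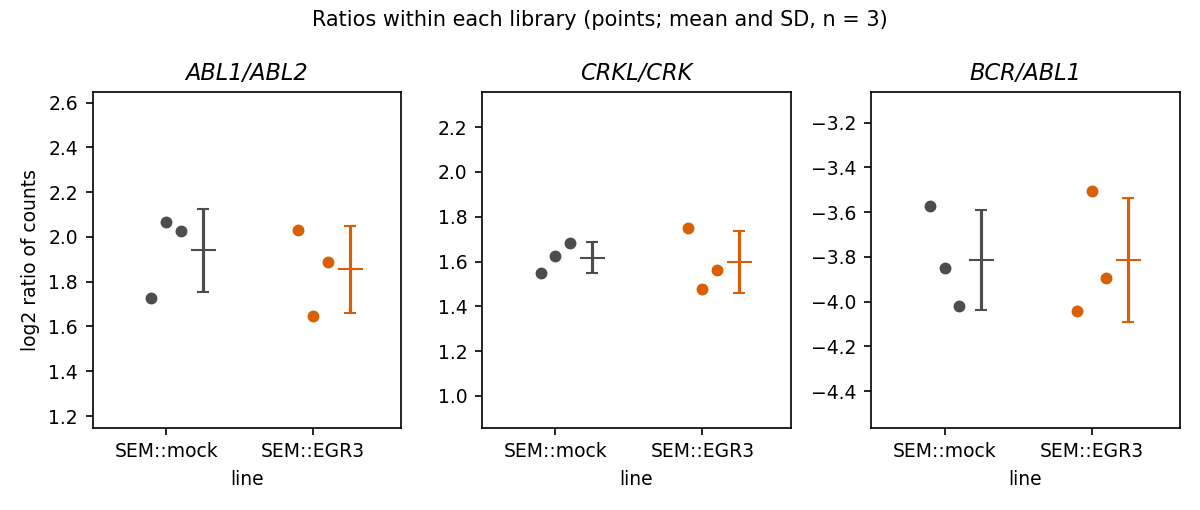
Log2 ratio of counts within each library for ABL1 to ABL2, CRKL to CRK and BCR to ABL1, with the mean and SD of the 3 libraries of each line. Each panel spans the same height of the log2 scale, and the lines overlap in all 3 panels.

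Since EGR3 binds DNA, the 250 bases before the annotated starts of these genes were searched for the EGR core GCGNGGGCG and, within it, for GCGTGGGCG and GCGGGGGCG, on both strands. RefSeq promoter sequences (GRCh38.p14) were matched by symbol for 9 of the 10 genes, with 12 starts in all. CBL had no entry. The core was found in 3 genes, ABL1, CRK and GRB2, each once, on the strand of the gene, and all 3 were lower in SEM::EGR3, as were 4 of the other 6 genes with an entry. Counted by start, the core was found at 3 of the 12, against 8.41% of all 35116 promoters. The share of G and C in the 250 bases was 78.4% for ABL1, 78.8% for CRK and 71.6% for GRB2. The median over all promoters was 58.0%. The starts without a core ranged from 37.6% (ABL2) to 84.0% (GAB2). The part of base composition in these matches was not tested. GCGTGGGCG was found at none of the 12 starts (0.72% of all promoters), and GCGGGGGCG in ABL1 and GRB2 (4.72% of all promoters). These matches describe the letters alone, and binding was not analysed here.

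The 3 matches are shown with 10 bases on each side, 5′ to 3′ on the strand of the gene, the core in capitals. They lie 39 to 31 bases before the start of ABL1, 113 to 105 before that of CRK and 58 to 50 before that of GRB2. The ABL1 match lies in bases that GENCODE annotates as exon, and the transcript they belong to was not looked up here.
ABL1, chr9:130835205-130835233, plus strand: cggcggcgggGCGGGGGCGggcctggcgg
CRK, chr17:1456327-1456355, minus strand: cagtgcgcgcGCGAGGGCGccttgccctt
GRB2, chr17:75405718-75405746, minus strand: gggaagtctcGCGGGGGCGgggcggggcc
For comparison, the promoter of CRKL, the gene with the smallest adjusted p of the 10, is shown beside that of its paralog CRK. Both lie outside annotated exons. The 250 bases of CRKL hold no core and the 224 bases of CRK hold 1. Their log2 fold changes were −0.54 and −0.53, and the part of the core in these changes was not tested.
CRKL, chr22:20917157-20917406, plus strand: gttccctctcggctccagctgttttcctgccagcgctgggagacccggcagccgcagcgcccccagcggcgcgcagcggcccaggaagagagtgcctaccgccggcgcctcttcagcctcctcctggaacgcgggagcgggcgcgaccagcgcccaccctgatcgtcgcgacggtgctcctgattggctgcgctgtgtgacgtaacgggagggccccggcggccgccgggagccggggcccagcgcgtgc
CRK, chr17:1456259-1456482, minus strand: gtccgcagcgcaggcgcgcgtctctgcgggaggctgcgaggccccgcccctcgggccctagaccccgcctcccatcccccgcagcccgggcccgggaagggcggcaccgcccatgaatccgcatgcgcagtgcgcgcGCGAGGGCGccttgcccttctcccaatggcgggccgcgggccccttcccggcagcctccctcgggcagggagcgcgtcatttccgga

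The paralogs of the 10 genes did not share 1 direction. Of 11 paralogs, 8 were tested, with 3 higher, 1 lower and 4 not called, and a median log2 fold change of 0.13. ABR, the close relative of BCR that also acts on RAC, went opposite to BCR, from 15.7, 16.1 and 16.5 CPM in SEM::mock to 40.8, 37.9 and 39.5 CPM in SEM::EGR3 (log2 fold change 1.30, SE 0.09, adjusted p = 8.29e-12). GAB1 rose (4.75 ± 0.90 to 16.6 ± 0.83 CPM, SD, n = 3, log2 fold change 1.81), whereas GAB3 fell (12.3 ± 1.69 to 4.76 ± 0.38 CPM, log2 fold change −1.41), both being docking proteins of the GAB2 family. GRAP, a lymphoid adaptor of the GRB2 family, had 0 counts in all SEM::mock libraries and 10.1, 11.9 and 12.2 CPM in SEM::EGR3, at least 21.1-fold higher than the floor of 3 counts per library. GRAP has a near-identical copy, GRAPL, with which reads may be shared. GRAP2, SHC2, SOS2 and CBLB were not called (log2 fold changes 0.20, −0.13, 0.06 and −0.17). SHC3 and SHC4 were too low to be tested, at 0.33 and 1.44 CPM in SEM::EGR3, and CBLC was not analysed here.

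Of 13 partners of the ABL and CRK proteins, 12 were tested, with 6 higher, 4 lower and 2 not called (median 0.25). RIN1, an activator of ABL kinases, rose from 3.52 ± 0.93 to 22.6 ± 2.78 CPM (SD, n = 3, log2 fold change 2.66, SE 0.17, adjusted p = 8.95e-13). The SH2 and SH3 adaptor NCK2 rose from 3.03 ± 0.78 to 16.8 ± 1.29 CPM (log2 fold change 2.47). PSTPIP1, a cytoskeletal adaptor of hematopoietic cells, and NEDD9, a docking protein bound by CRK, had at most 3 counts in every SEM::mock library and were at least 23.4-fold and 4.198-fold higher in SEM::EGR3. PXN, the focal adhesion protein paxillin and another ligand of CRK, fell from 95.9 ± 0.56 to 28.03 ± 2.70 CPM (log2 fold change −1.76, SE 0.07, adjusted p = 1.38e-16). Its 3 SEM::EGR3 libraries, at 29.7, 24.9 and 29.5 CPM, all lay far under the lowest SEM::mock library at 95.2 CPM.

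Among 12 other signal adaptors, 11 were tested, with 5 higher, 2 lower and 4 not called (median 0.08). Of the 5 higher ones 4 had at most 3 counts in every SEM::mock library. LAT2, a transmembrane adaptor of B and myeloid cells, had 106, 122 and 111 CPM in SEM::EGR3, at least 209-fold higher. STAP1, SH2D3C and DOK2 were at least 10.8-, 12.6- and 6.07-fold higher. UBASH3B, a phosphatase that binds CBL, rose from 47.0 ± 0.14 to 112 ± 5.15 CPM (SD, n = 3, log2 fold change 1.26, SE 0.07, adjusted p = 1.75e-14).

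The cascades fed by these adaptors were mixed. Of 13 genes of the RAS and ERK cascade, 4 were higher, 4 lower and 5 not called (median 0.03). RASA1, a GTPase activating protein that switches RAS off, was the 1 gene here to change by 1 or more, from 13.7 ± 0.70 to 42.3 ± 2.43 CPM (SD, n = 3, log2 fold change 1.63, SE 0.10, adjusted p = 2.54e-13). Of 11 genes for phosphatidylinositol 3-kinase, AKT and RAC signaling, 5 were higher, 5 lower and 1 not called (median 0.01). The catalytic subunits went apart, with PIK3CB at 48.9 ± 2.32 and 21.0 ± 0.23 CPM (log2 fold change −1.22) and PIK3CD at 20.4 ± 2.16 and 44.7 ± 0.62 CPM (log2 fold change 1.13). The regulatory subunit gene PIK3R2 fell from 2.73 ± 0.55 to 1.20 ± 0.25 CPM (log2 fold change −1.16). In all, 55 of the 60 genes of the 5 lists were tested, with 23 higher, 16 lower and 16 not called and a median of 0.08. Setting genes at the floor in SEM::mock to their lower bounds left each of these medians as given.

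**Figure D4:**
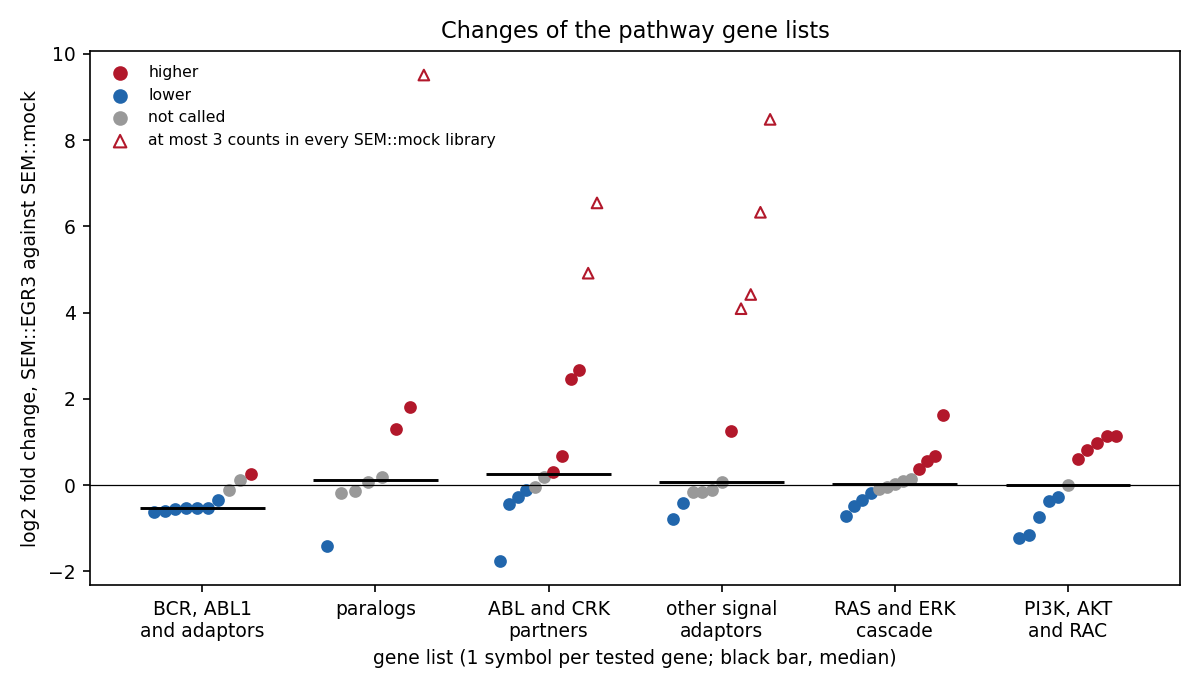
Log2 fold change of each tested gene, by list and coloured by call, with the median of each list as a black bar. Open triangles are genes with at most 3 counts in every SEM::mock library, whose fitted values are not bounds. The 10 genes lie between −0.63 and 0.25, while the 5 pathway lists spread to both sides of 0.

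The genes around BCR and ABL1 were read as a description of position. Within 1 Mb of BCR, 4 genes before it were tested, with 1 higher and 3 lower (median −0.98), and 14 after it, with 9 higher, 2 lower and 3 not called (median 0.81). The 3 lower genes before BCR lie 620 kb or farther away. Within 0.5 Mb, 1 gene before BCR was tested, GNAZ, and it was higher, while 6 of the 7 tested genes after BCR were higher and 1 lower. The nearest tested genes before it were GNAZ, at 55 kb, which rose from 0.41 ± 0.24 to 2.32 ± 0.49 CPM (SD, n = 3, log2 fold change 2.39), and PRAME, a tumor antigen gene at 620 kb, which fell from 2011 ± 162 to 975 ± 60.3 CPM (log2 fold change −1.05). ZNF280A fell by 2.02 on the log2 scale. After BCR, IGLL1, a component of the surrogate light chain of pre-B cells, was at least 93.3-fold higher, VPREB3 at least 30.9-fold and C22orf15 at least 4.56-fold. ZNF70 and MMP11 rose (log2 fold changes 1.03 and 2.76), and GGT5 fell by 2.29 on the log2 scale.

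Within 1 Mb of ABL1, 12 genes before it were tested, with 3 higher, 7 lower and 2 not called (median −0.26), and 9 after it, with 5 higher, 3 lower and 1 not called (median 0.25). EXOSC2, the nearest tested gene before ABL1, was not called (log2 fold change 0.11, adjusted p = 0.196), and FUBP3 next to it fell by 0.35 on the log2 scale. After ABL1, FIBCD1 rose from 1.45 ± 0.40 to 3.56 ± 0.56 CPM (SD, n = 3, log2 fold change 1.26) and AIF1L from 10.9 ± 0.56 to 362 ± 20.5 CPM (log2 fold change 5.05, SE 0.08, adjusted p = 2.23e-24). Farther before ABL1, ASS1 rose by 2.08 on the log2 scale, NCS1 fell by 1.23, USP20 fell by 1.90, and PTGES and PRRX2 were at least 3.58-fold and 4.83-fold higher.

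**Figure D5:**
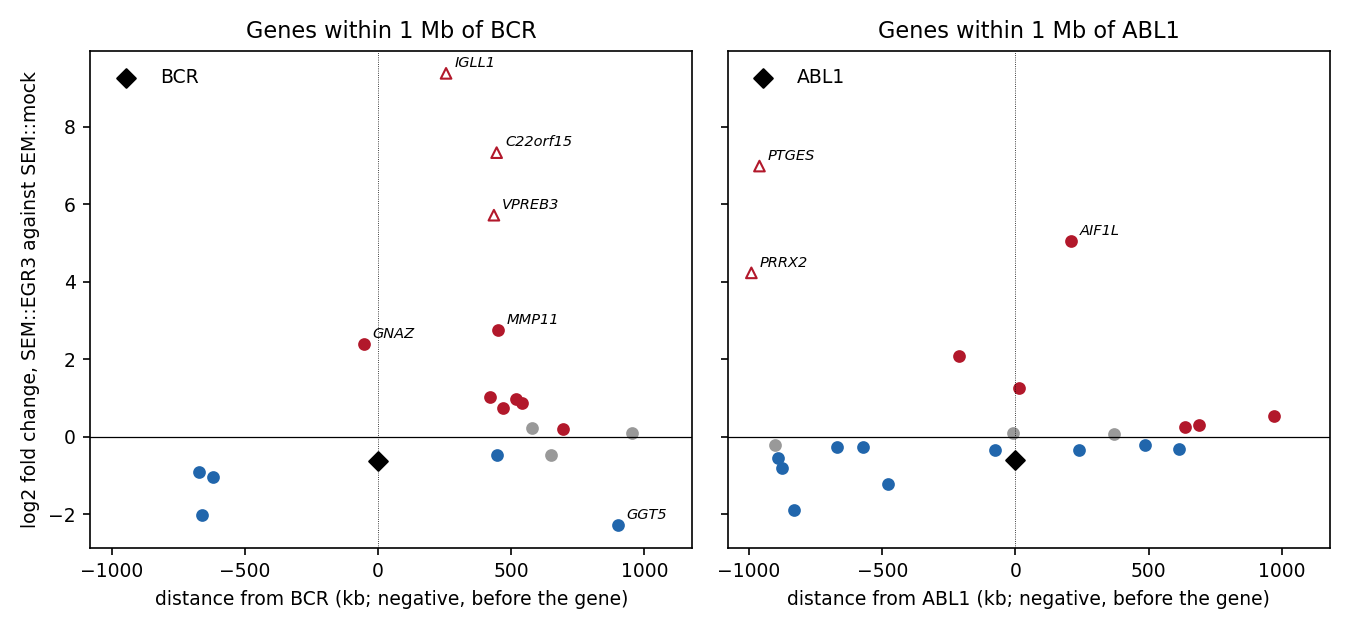
Log2 fold change of the tested protein-coding genes within 1 Mb of BCR (left) and ABL1 (right) against their distance in kb, coloured red (higher), blue (lower) and grey (not called), with the gene itself as a black diamond. Open triangles are genes with at most 3 counts in every SEM::mock library. Before BCR, the nearest tested gene is higher and 3 distant genes are lower, and after it 9 of 14 genes are higher.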

How the data were processed

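MACE-Seq was performed by the authors on RNA of 3 SEM::mock and 3 SEM::EGR3 replicates, and groups and replicate numbers were taken from the labels (column headings spell the transgene ERG3). The submitters' processing notes name bcl2fastq, Bowtie2, HTSeq and GRCh38, while annotation and strand setting are not given in the sources used here. The authors deposited raw counts per gene, which were tested here. The deposited CPM values, headed TPM, are counts divided by a library total, 73.6% to 75.8% of which lies in the listed genes. The deposited size-factor signal columns, the pooled means and the authors' own fold changes and p-values were not used.

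The tests were run with edgeR 4.0.16 under R 4.3.3 (filterByExpr, TMM, glmQLFit, glmQLFTest) without a further term, and p-values were adjusted by Benjamini-Hochberg over 15465 genes. The fit was also run on simulated counts in which far fewer genes changed than were called here. That run therefore does not show how the fit behaves with changes as widespread as these. CPM values printed here use TMM library sizes, and SE is that of the log2 fold change. A gene with at most 3 counts in each library of a line was taken as at the floor, which covers counting error only. The part of duplicate reads in the counts was not tested. Positions are from GENCODE 29 (GRCh38), which held 97.0% of the identifiers. Ratios used a pseudocount of 0.5. The 10 genes and the gene lists were chosen with earlier results of these data known. Named were the 10 genes, paralogs, list genes and neighbours whose log2 fold change reached 1 in size at an adjusted p under 0.05, and the 2 nearest tested neighbours on each side. Markers were named by level. PYGO2, AL451085.2 and MCAM were named because their spans overlap the last exon of SHC1 or CBL. The BCR pseudogenes were named because reads may be split among them and BCR. Alternatives were DESeq2 1.42.0, other normalization and filters, a replicate term, leaving out libraries, a fold threshold, thinning, a narrower window and another pseudocount. Protein sequences were not used here, and single values of some list genes are not reported here.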

Additional observations from a re-analysis of the deposited data

How the results depend on the processing

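The number of the 10 genes called lower stayed at 7 under every alternative but the fold threshold, and they were the same 7 genes. The number called higher, 1 in the report, was 2 without normalization factors and with at least 10 counts required in every library, where SHC1 joined CBL, and 0 with DESeq2 and with libraries thinned to the smallest (adjusted p of CBL 0.0661 and 0.0892). It ranged from 0 to 1 when each library was left out. Testing against an absolute log2 fold change of 0.5 called 0 genes higher and 0 lower of the 10, 7 pathway genes lower, 21 neighbours of BCR and ABL1 in place of 33, and 3225 higher and 2176 lower of all tested genes. This test asks for larger changes by construction. Within 0.5 Mb, 15 neighbours were called. Replicate numbers did not pair the libraries (correlations of deviations −0.11, −0.06 and −0.03 for equal numbers), and with the replicate block 0 of the 10 genes were called higher, CBL having an adjusted p of 0.0504, and 5388 and 4693 of all tested genes higher and lower. Without normalization factors 59.4% of all calls were higher, against 53.2%. Depth limits BCR most, at 66 to 135 counts per library.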
